A study of Mus musculus with 15 samples.

Results

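The 10 genes that build the inflammasomes of the mouse macrophage were followed across 5 groups of MH-S cells. The set holds the sensors Nlrp3, Nlrp1b, Aim2, Naip2, Naip5 and Nlrc4, the adaptor Pycard, the caspases Casp1 and Casp4, and the pore-forming effector Gsdmd. Members were taken by name, as the rows of the raw count table whose Ensembl identifier maps to these symbols, a rule that uses no measured value. All 10 were found among the 78317 identifiers of the table, and all 10 passed the filter on low counts.

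An inflammasome is a protein complex that assembles in the cytosol after a sensor meets a danger or microbial signal. The adaptor ASC, encoded by Pycard, links most sensors to caspase-1, which matures IL-1β and IL-18 and cleaves gasdermin D into a membrane pore, whereas caspase-11 (the product of mouse Casp4) binds cytosolic LPS itself. In macrophages taking up particles, rupture of the lysosome is a textbook trigger of NLRP3, and because complex assembly and cleavage are protein events, a transcript level describes the supply of the parts and not the activity of the complex.

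MH-S is an SV40-transformed mouse alveolar macrophage line. The M0 group received medium alone for 24 h. CaP_rods and SiO2_rods received alginate-containing calcium phosphate or silica microrods coated with protamine and carboxymethyl chitosan at 0.1 mg/mL, M1 received LPS at 1 µg/mL with IFN-γ at 20 ng/mL, and M2 received IL-4 at 20 ng/mL, each for 24 h. Each group held 3 wells, each rod well held its own particle batch, and a single cell passage was used, so the spread and the p-values cover wells and particle batches of one line and one passage.

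Total counts lay between 8459643 in an M0 library and 68750050 in an M2 library. The general macrophage markers Cd68 (676 to 1320 CPM), Lyz2 (322 to 2102 CPM) and Csf1r (60.9 to 203 CPM) were expressed in every library. CPM is the count scaled to a common library size after TMM normalization. Of the markers of the resident alveolar macrophage, Siglecf (at most 0.477 CPM), Car4 (0.0858), Chil3 (0.477) and Pparg (0.657) were near or at 0. Fabp4 and Marco were low, at most 0.656 and 0.325 CPM outside M1, and 1.03 to 1.84 and 1.46 to 2.81 CPM in M1. In M1 vs M0 edgeR called both higher, with log2 fold changes of 2.22 for Fabp4 (adjusted p = 0.00154) and 4.36 for Marco (0.00107). Itgax was low but present in every library (1.57 to 4.92 CPM), and Mrc1 was at 24.7 to 30.0 CPM in M2 and at most 2.20 CPM elsewhere. The summed level of 9 markers of other cell types was between 0.231 and 2.80 CPM, with Epcam and Ncr1 at 0 throughout, and M1 held the highest values (1.84 to 2.80 CPM), whose part in the results was not tested. In bulk RNA, fewer cells and less RNA per cell cannot be told apart.

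The parts of the inflammasome were present in unstimulated cells at very different levels. Per kilobase of the longest annotated transcript, Pycard led M0 with a median of 31.7 CPM per kb, followed by Casp1 at 24.2, Gsdmd at 20.3, Nlrc4 at 12.3, Aim2 at 5.25 and Casp4 at 3.48 CPM per kb. On this length the libraries of neighbours in this part of the order did not overlap in M0. When the longest protein-coding transcript was used, Casp4 (4.43 to 5.90 CPM per kb) overlapped Aim2 (4.78 to 5.34). With the summed exon length, Nlrc4 overlapped Gsdmd. Naip2 (0.695), Nlrp3 (0.678), Naip5 (0.362) and Nlrp1b (0.329 CPM per kb) came last, and within these the libraries of each gene overlapped those of the next. The canonical particle sensor NLRP3 was thus among the 4 scarcest transcripts of the set, at 13 to 119 counts per M0 library.

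This order was not the same in every group. Pycard ranked first and Nlrp1b last in all 5 groups, while Gsdmd had a higher median than Casp1 in M1, M2, CaP_rods and SiO2_rods, with overlapping libraries in each. By median, Nlrc4 lay between Aim2 and Casp4 in CaP_rods (4.05 CPM per kb), and below both in M1 (3.92 CPM per kb). In each of these groups the libraries of Nlrc4 overlapped those of Aim2 and of Casp4, so the order was not separated. Transcript choice touches this scale: the longest annotated Pycard transcript has 3800 bases and the shorter one 493, so the per-length level of Pycard could be higher than given.

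**Figure D1:**
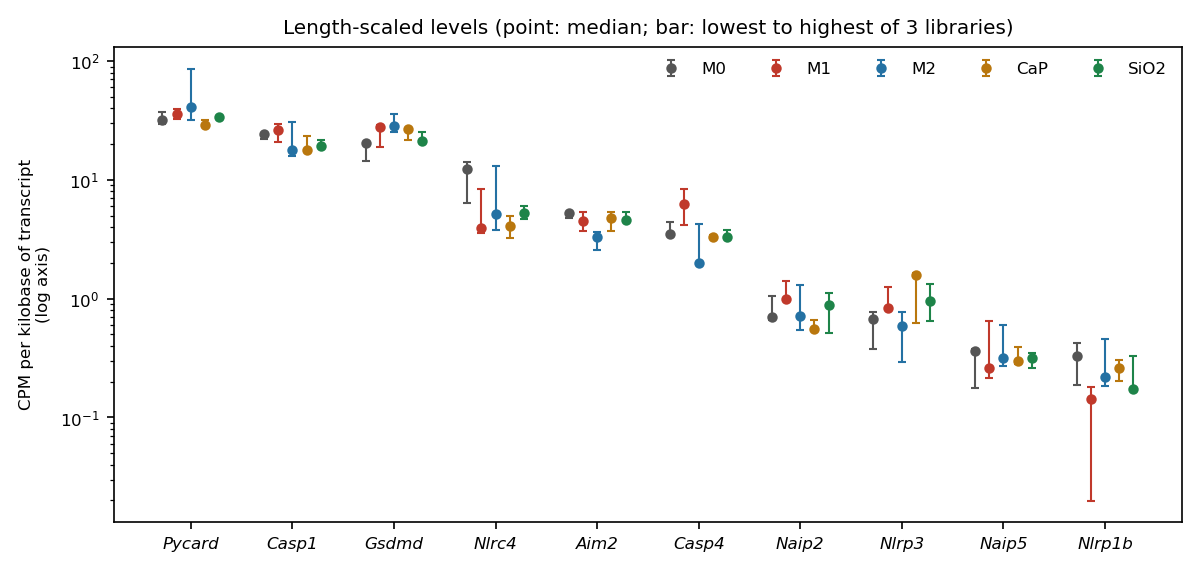
Levels of the 10 genes in CPM per kilobase of transcript on a log axis, ordered by their M0 median, with a point for the median and a bar from the lowest to the highest of 3 libraries in each of the 5 groups. Pycard, Casp1 and Gsdmd lie above 14 CPM per kb in every library, whereas Naip2, Nlrp3, Naip5 and Nlrp1b lie under 1.7 CPM per kb.

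Nlrp3 encodes the sensor that responds to potassium loss and damaged membranes. Its levels were 3.13, 2.73 and 1.50 CPM in M0, 2.50, 6.37 and 6.64 CPM in CaP_rods, and 2.59, 5.36 and 3.84 CPM in SiO2_rods. In both rod groups 1 library lay inside the M0 range and the other 2 lay above it. CaP_rods vs M0 gave a log2 fold change of 0.95 (SE 0.43, 95% interval -0.02 to 1.93, edgeR adjusted p = 0.285) and SiO2_rods vs M0 one of 0.56 (SE 0.45, interval -0.45 to 1.57, adjusted p = 0.768). Neither passed the test, and the intervals leave room for a difference of more than 1 log2 unit. The M1 libraries held 3.26, 3.34 and 5.05 CPM, all above M0, with a log2 fold change of 0.56 (edgeR adjusted p = 0.440) and M2 held 3.13, 1.18 and 2.36 CPM.

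Nlrc4 is the adaptor-sensor that NAIP proteins activate after binding flagellin or secretion-system proteins. Its levels in M0 were 66.4, 30.5 and 57.9 CPM, against 19.2, 23.5 and 15.3 CPM in CaP_rods and 24.7, 22.1 and 28.6 CPM in SiO2_rods. Every rod library was thus under the lowest M0 library, and Nlrc4 was the only member with lower, non-overlapping libraries in both rod groups. Over all genes, 17.4% did not overlap in CaP_rods vs M0 and 18% in SiO2_rods vs M0. The share apart from M0 in both was not taken. For CaP_rods vs M0 the log2 fold change was -1.42 (SE 0.29, 95% interval -2.07 to -0.78), with an adjusted p of 0.0809 by edgeR and 0.00122 by DESeq2. For SiO2_rods vs M0 it was -1.04 (SE 0.29, interval -1.68 to -0.39), with an adjusted p of 0.339 by edgeR and 0.0941 by DESeq2. Leaving out M0 replicate 2, the lowest M0 library, gave -1.69 for CaP_rods vs M0 with an edgeR adjusted p of 0.0309, and testing without a filter on low counts gave 0.0269. Single left-out libraries gave log2 fold changes from -1.69 to -1.22 for CaP_rods vs M0, with edgeR adjusted p from 0.0309 to 0.349. For SiO2_rods vs M0 they gave -1.30 to -0.81, with edgeR adjusted p from 0.123 to 0.962. Both comparisons use the same M0 libraries and are not independent of each other.

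The spread of Nlrc4 went beyond the rods. M1 held 39.9, 17.0 and 18.5 CPM and M2 held 24.6, 61.4 and 17.9 CPM, so both groups overlapped M0. M1 vs M0 gave a log2 fold change of -1.04 (SE 0.44, edgeR adjusted p = 0.142) and M2 vs M0 one of -0.61 (SE 0.44, edgeR adjusted p = 0.535). Without a filter on low counts the former had an edgeR adjusted p of 0.00450, and with single libraries left out it had 0.0523 to 0.387. Its SD within groups was 0.60 on the log2 scale, against a median of 0.38 over all tested genes.

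Naip2 and Naip5 encode the receptors upstream of NLRC4, for the rod protein of bacterial secretion systems and for flagellin. Naip2 ranged from 3.18 to 5.13 CPM in M0, 2.68 to 3.21 CPM in CaP_rods and 2.49 to 5.36 CPM in SiO2_rods. Naip5 ranged from 0.925 to 1.97 CPM in M0 and from 1.36 to 2.03 CPM over the rod libraries. Neither passed the test in any of the 8 comparisons, and the rod groups overlapped M0 for both. The Naip genes lie side by side on chromosome 13 and resemble each other: 4.38% of the 75-base windows of Naip2 also occur in Naip5, and 11.3% of those of Naip5 occur in Naip6, so the split of reads among them is uncertain. For Nlrp1b the share with its neighbour Nlrp1a was 0.66%.

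Aim2 encodes the receptor for cytosolic double-stranded DNA and had the smallest spread within groups, an SD of 0.22 on the log2 scale. It stood at 14.9, 13.6 and 15.1 CPM in M0 and at 9.33, 10.4 and 7.27 CPM in M2, with no overlap. The log2 fold change for M2 vs M0 was -0.72 (SE 0.21, 95% interval -1.17 to -0.28), with an adjusted p of 0.0715 by edgeR and 0.0149 by DESeq2. In the rod groups Aim2 ranged from 10.5 to 15.3 CPM, and the intervals of the log2 fold change against M0 ran from -0.57 to 0.27 for CaP_rods and from -0.52 to 0.33 for SiO2_rods.

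Nlrp1b encodes a sensor that detects protease damage to itself, as by anthrax lethal factor. It was the scarcest member, at 1.42, 1.82 and 0.809 CPM in M0 and 0.0858, 0.614 and 0.776 CPM in M1, where the first library held a single count. The M1 libraries all lay under M0. The log2 fold change was -1.52 (SE 0.54, 95% interval -2.67 to -0.36, edgeR adjusted p = 0.0770), and with the replicate number as a block it was -1.56 with an edgeR adjusted p of 0.0470. Over single left-out libraries it ran from -1.90 to -1.04, the latter without M1 replicate 1, with edgeR adjusted p from 0.0647 to 0.214. In the rod groups Nlrp1b ranged from 0.733 to 1.43 CPM and overlapped M0.

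Pycard, the adaptor gene, had similar levels in M0 and the rod groups. It stood at 112, 120 and 142 CPM in M0, 122, 110 and 110 CPM in CaP_rods and 124, 129 and 130 CPM in SiO2_rods. The 95% interval of its log2 fold change against M0 ran from -0.43 to 0.19 for CaP_rods and from -0.27 to 0.35 for SiO2_rods, the narrowest intervals of the set. In M2 it held 156, 329 and 122 CPM, with a log2 fold change against M0 of 0.69 (SE 0.27, edgeR adjusted p = 0.201), which was 0.15 without M2 replicate 2. Of the exon bases of Pycard, 12.8% overlap Gm45205 on the opposite strand, which this unstranded protocol cannot separate. Gm45205 was assigned at most 0.394 CPM in any library.

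**Figure D2:**
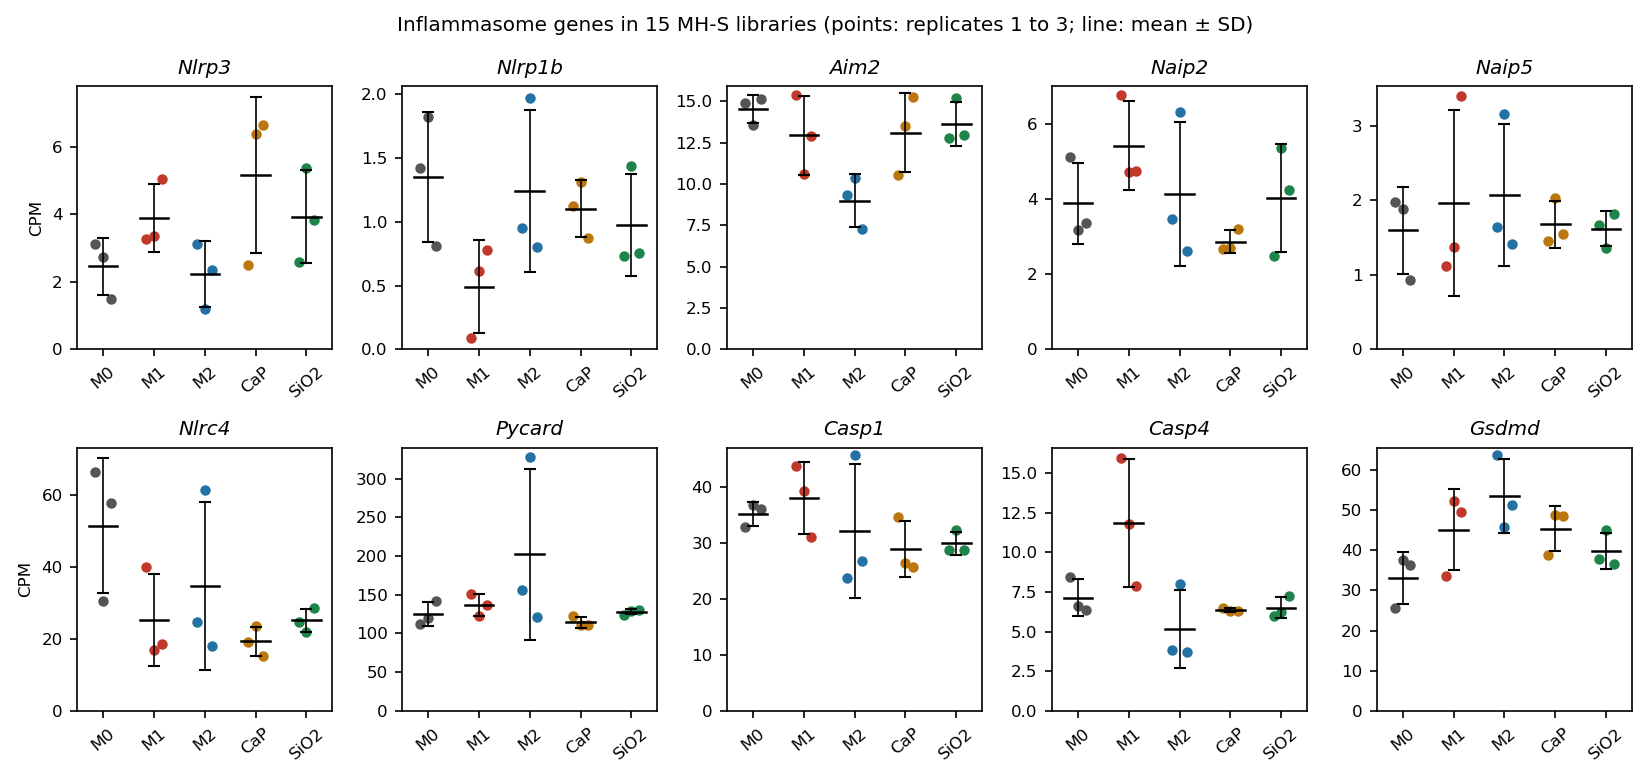
Levels of the 10 genes in CPM in the 15 libraries, 1 panel per gene with its own linear axis from 0, with points for replicates 1 to 3, a line for the mean and a bar for the SD. The 6 rod libraries of Nlrc4 lie under the lowest M0 library of 30.5 CPM, Casp4 is highest in M1 replicate 1 at 16.0 CPM, and M2 replicate 2 stands above the other M2 libraries for Pycard at 329 CPM.

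The second library of M2 stood apart for the set as a whole. It was the highest of the 3 M2 libraries for 8 of the 10 members and the lowest for the other 2, Nlrp3 and Gsdmd. Its total of 8594947 counts was the smallest of its group. Without it, 3 members passed the edgeR test in M2 vs M0: Aim2 at -0.82 (adjusted p = 0.0337), Casp4 at -0.94 (0.0416) and Gsdmd at 0.80 (0.0471) on the log2 scale. The count over all genes went from 687 of 16654 (4.13%) to 1361 in the same setting. Over the 6 settings with a single library left out, the number of members called ran from 0 to 3, and this setting gave the 3.

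Casp1 and Casp4 are neighbours on chromosome 9 and share none of their 75-base windows. Casp1, which encodes the caspase that matures IL-1β, held 32.8, 36.8 and 36.2 CPM in M0, 43.9, 39.4 and 31.1 CPM in M1, and 34.7, 26.5 and 25.7 CPM in CaP_rods. Its SiO2_rods libraries, at 28.8, 32.4 and 28.8 CPM, lay just under the M0 libraries. Against M0, its log2 fold change was -0.28 for CaP_rods (95% interval -0.65 to 0.09, edgeR adjusted p = 0.406) and -0.23 for SiO2_rods (interval -0.61 to 0.14, adjusted p = 0.723). A difference of 1 log2 unit in either direction lay outside these intervals.

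Casp4 gave the single call of the set. Its levels were 16.0, 11.8 and 7.86 CPM in M1 and 3.82, 8.02 and 3.70 CPM in M2, so the lowest M1 library and the highest M2 library overlapped. The log2 fold change for M1 vs M2 was 1.31 (SE 0.31, 95% interval 0.65 to 1.97), with an adjusted p of 0.00953 by edgeR and 0.00189 by DESeq2. The call was lost without M1 replicate 1 (1.04, edgeR adjusted p = 0.0511), without M2 replicate 3 (1.07, 0.0675) and when only the 6 libraries compared were fitted (1.22, 0.131).

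Against M0, at 8.47, 6.62 and 6.36 CPM, neither polarised group passed for Casp4. It gave a log2 fold change of 0.71 for M1 (SE 0.29, edgeR adjusted p = 0.127) and -0.59 for M2 (SE 0.31, edgeR adjusted p = 0.351). The rod libraries were close together and close to M0, at 6.49, 6.30 and 6.27 CPM in CaP_rods and 6.01, 6.27 and 7.24 CPM in SiO2_rods, with intervals against M0 from -0.61 to 0.23 and from -0.58 to 0.28. All 6 lay under the lowest M1 library. Against M1 the log2 fold change was -0.90 for CaP_rods (adjusted p = 0.0550 by edgeR, 0.0352 by DESeq2) and -0.87 for SiO2_rods (0.0797 and 0.0567), and without M1 replicate 3 both passed edgeR at 0.0296 and 0.0424. Over single left-out libraries the edgeR adjusted p ran up to 0.257 for CaP_rods and 0.325 for SiO2_rods. The log2 fold changes were smallest in size without M1 replicate 1, at -0.64 and -0.60.

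The promoter sequences of this pair are shown because Casp4 carried the single call and Casp1 is the gene beside it. Each window runs from 250 bases before to 50 after the annotated start, from RefSeq on GRCm38.p6, a build other than the GRCm39 named by the submitters, and the coordinates hold for that older build only. Capitals mark matches on either strand to GGGANTTCC, a form of the κB site to which NF-κB binds. The windows are chr9:5308599-5308898 for Casp4 and chr9:5298267-5298566 for Casp1, both on the plus strand.
Casp4: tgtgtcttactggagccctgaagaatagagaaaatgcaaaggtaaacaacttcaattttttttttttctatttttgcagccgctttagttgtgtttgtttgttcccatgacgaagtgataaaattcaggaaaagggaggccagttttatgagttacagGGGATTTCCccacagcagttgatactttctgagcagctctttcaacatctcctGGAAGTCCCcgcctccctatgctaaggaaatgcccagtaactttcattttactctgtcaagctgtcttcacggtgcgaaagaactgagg
Casp1: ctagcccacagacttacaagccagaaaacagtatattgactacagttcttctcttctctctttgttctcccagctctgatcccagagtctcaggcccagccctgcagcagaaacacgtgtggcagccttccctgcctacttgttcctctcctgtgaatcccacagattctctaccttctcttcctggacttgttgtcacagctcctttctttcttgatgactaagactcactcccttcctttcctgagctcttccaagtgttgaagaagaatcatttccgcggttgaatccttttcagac

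The Casp4 window held the letters at positions -92 and -39 from the start, and the Casp1 window did not hold them. Among the 9 members with a promoter in the table (Gsdmd has none there), Casp4 was the only one with a match, while 1.677% of 32851 mouse promoter windows had it. GAAANNGAA, a core of the interferon response element, was in Naip2 alone and in 8.56% of all windows. A match of letters is a description and no evidence of binding.

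Gsdmd encodes the pore that opens the plasma membrane once it is cleaved. It stood at 25.7, 37.5 and 36.3 CPM in M0 and at 63.8, 45.7 and 51.3 CPM in M2, with no overlap. The log2 fold change for M2 vs M0 was 0.70 (SE 0.21, 95% interval 0.24 to 1.15), with an adjusted p of 0.0879 by edgeR and 0.0266 by DESeq2. The CaP_rods libraries, at 38.9, 48.9 and 48.5 CPM, also lay above M0, with a log2 fold change of 0.46 (SE 0.19, interval 0.03 to 0.89, edgeR adjusted p = 0.252). The SiO2_rods libraries held 37.8, 45.0 and 36.7 CPM and overlapped M0, as did the M1 libraries at 33.7, 52.4 and 49.5 CPM. The CaP_rods vs SiO2_rods difference of Gsdmd was 0.19 (interval -0.24 to 0.61).

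**Figure D3:**
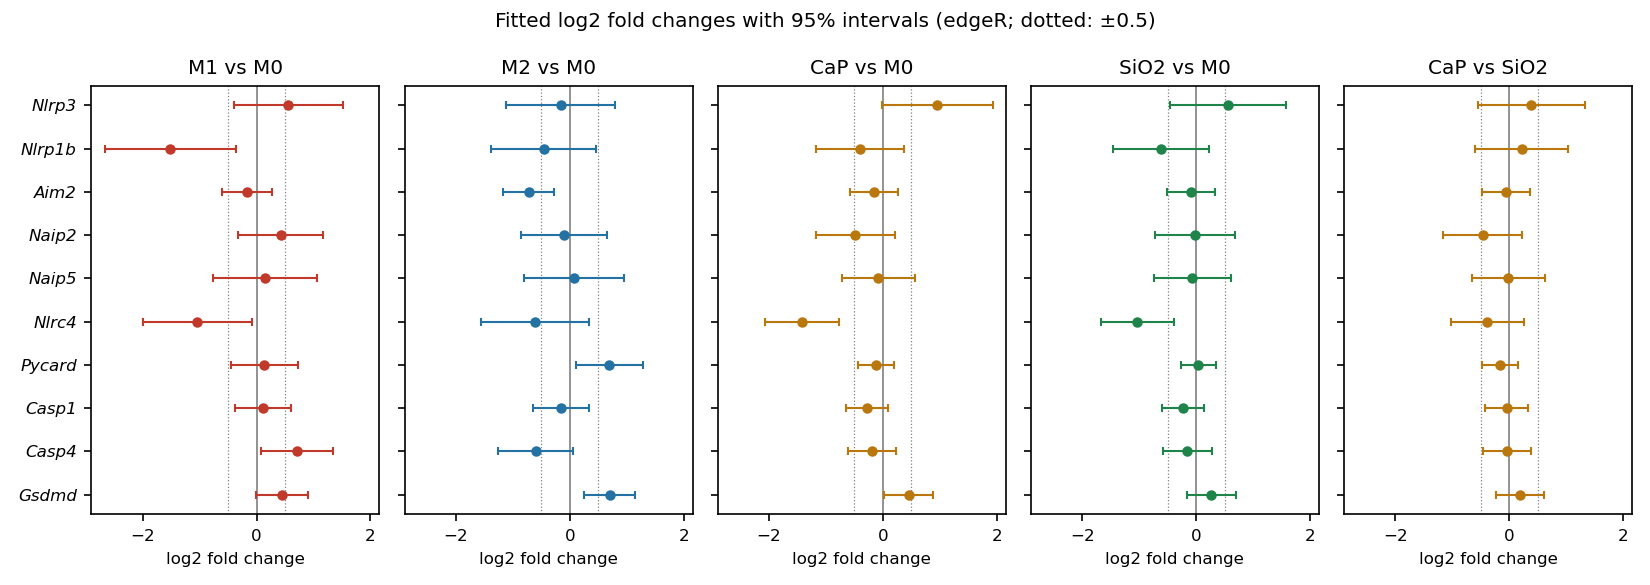
Fitted log2 fold changes of the 10 genes (points) with 95% intervals (bars) in 5 comparisons from edgeR, with dotted lines at the fold threshold of 0.5. The interval of Nlrc4 lies under 0 in CaP_rods vs M0 (-2.07 to -0.78) and SiO2_rods vs M0 (-1.68 to -0.39), whereas the intervals of CaP_rods vs SiO2_rods all span 0.

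Counted over the set, a gene was called where its edgeR adjusted p was under 0.05 and its log2 fold change exceeded 0.5 in size. In M1 vs M0, 0 of 10 members were called, against 14.1% of all 16654 genes tested. DESeq2 called 0 members (16.8% of all genes), and 3 had an unadjusted edgeR p under 0.05 (27.7% of all genes). In 1 member M1 lay wholly above M0 and in 1 wholly below, where 32.2% of all genes did not overlap. The count at an unadjusted p was near the share of all genes, and the others were under it.

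In M2 vs M0, edgeR called 0 members (4.13% of all genes) and DESeq2 called 2 (5.98% of all genes), Aim2 lower and Gsdmd higher. An unadjusted p under 0.05 was found for 3 members (17.2% of all genes), and 1 member lay wholly above and 1 wholly below M0 (15.2% of all genes). In M1 vs M2, Casp4 was the 1 member called by edgeR (16.1% of all genes) and also by DESeq2 (17.2%), and 2 members had an unadjusted p under 0.05 (29.8%).

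In CaP_rods vs M0, edgeR called 0 members, where 0.409% of 16621 genes were called. DESeq2 called Nlrc4 (4.15% of all genes), 2 members had an unadjusted p under 0.05 (18% of all genes), and 1 lay wholly above and 1 wholly below M0 (17.4% of all genes). In SiO2_rods vs M0, edgeR called 0 members (0.0602% of all genes), DESeq2 called 0 (0.778%), and 1 had an unadjusted p under 0.05 (9.27%). Wholly below M0 lay 2 members, Nlrc4 and Casp1 (18% of all genes did not overlap).

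Between the 2 rod materials, edgeR called 0 members in CaP_rods vs SiO2_rods (0.0241% of all genes), DESeq2 called 0 (0.0964%) and 0 had an unadjusted p under 0.05 (1.87%). The log2 fold changes ran from -0.47 for Naip2 to 0.39 for Nlrp3, with intervals from -1.16 to 0.23 and from -0.54 to 1.33, so a difference of 1 log2 unit was not excluded toward lower Naip2 or toward higher Nlrp3. The intervals of Aim2 (-0.47 to 0.36), Casp1 (-0.42 to 0.32) and Casp4 (-0.46 to 0.38) were narrower. Among the members, only Pycard had libraries that did not overlap between the materials, at 110 to 122 CPM against 124 to 130 CPM. Its log2 fold change was -0.16 (interval -0.47 to 0.15). The share of all genes without overlap between the materials was not taken, so this count is not read further.

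Set against M1, edgeR called 0 members for CaP_rods (12.7% of all genes) and DESeq2 called 1, Casp4 (14.5%), with 2 members at an unadjusted p under 0.05 (26.5%), Casp4 and Naip2. Naip2 was at 6.78, 4.71 and 4.75 CPM in M1, above all 3 CaP_rods libraries, with a log2 fold change of -0.91 for CaP_rods vs M1 (SE 0.34, edgeR adjusted p = 0.107). For SiO2_rods vs M1, edgeR called 0 members (10.5%), DESeq2 called 0 (12.2%), and 1, Casp4, had an unadjusted p under 0.05 (21.8%). With 10 members each gene is 10% of the set. No count given here beside a share of all genes lay as much as 2 genes away from it. The median log2 fold change of the members against M0 was 0.14 in M1, -0.15 in M2, -0.17 in CaP_rods and -0.08 in SiO2_rods, beside -0.01, 0.07, 0.06 and -0.02 over all genes tested.

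Other genes of the pathway, in 3 lists, were called in several comparisons, and their counts are read beside the shares of all genes given above. Of the substrates and lysis genes (17 on the list, 14 tested), 3 rose and 0 fell in M1 vs M0 by edgeR. By DESeq2, 4 rose and 1 fell. The genes called by DESeq2 alone were Ninj1 (0.74, adjusted p = 0.0388 by DESeq2 and 0.0611 by edgeR) and Gsdme (-0.80, 0.0276 and 0.0622). Il1b, which encodes the substrate pro-IL-1β, held 0.815, 1.10 and 1.27 CPM in M0 and 358, 424 and 449 CPM in M1, with a log2 fold change of 8.69 (SE 0.51, edgeR adjusted p = 9.0e-08). Il1a, encoding IL-1α, had 0 counts in every M0 library and 35.5 ± 2.70 CPM (SD, n = 3) in M1, at least 102-fold higher against a floor of 3 counts in an M0 library. Il1rn, encoding the IL-1 receptor antagonist, rose by 3.61 on the log2 scale (SE 0.23, edgeR adjusted p = 2.2e-07). Il18, the other caspase-1 substrate, held 24.0, 20.8 and 27.5 CPM in M0 and 24.6, 19.6 and 18.5 CPM in M1. The median log2 fold change of this list was -0.04, beside -0.01 over all genes tested.

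In the rod groups neither Il1b nor Il18 passed the test against M0. Il1b held 0.696, 1.18 and 1.27 CPM in CaP_rods and 2.54, 2.79 and 0.435 CPM in SiO2_rods, where 2 libraries lay above M0, and Il1a did not exceed 3 counts in any CaP_rods library. Il18 held 19.7, 16.2 and 15.9 CPM in CaP_rods and 18.2, 18.4 and 18.7 CPM in SiO2_rods, all under the lowest M0 library of 20.8 CPM. Against M0, 1 of 13 tested genes of the list rose in CaP_rods and 0 fell by edgeR and by DESeq2, and 6 had an unadjusted p under 0.05 (18% of all genes). In SiO2_rods edgeR called 0, DESeq2 called 1 and 5 had an unadjusted p under 0.05 (9.27% of all genes). The gene called was Il1rn in both cases, at 10.4, 13.0 and 14.9 CPM in M0, 43.9, 84.4 and 72.5 CPM in CaP_rods and 38.7, 40.1 and 39.0 CPM in SiO2_rods. Its log2 fold change was 2.40 for CaP_rods (SE 0.25, adjusted p = 0.00595 by edgeR) and 1.64 for SiO2_rods (SE 0.25, 0.0723 by edgeR and 2.5e-06 by DESeq2). The median log2 fold change of the list was 0.03 in CaP_rods and -0.02 in SiO2_rods.

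Among the genes of assembly and control (21 on the list, 20 matched, 17 tested in the fit of 15 libraries), 3 rose and 3 fell in M1 vs M0 by edgeR. By DESeq2, 3 rose and 4 fell, with Tmem176a (-0.56, adjusted p = 0.0217) called by DESeq2 alone. Gbp2 and Gbp3, guanylate-binding proteins that open bacterial membranes to caspase-11, rose by 3.92 and 2.11 on the log2 scale, and Serpinb9, a protease inhibitor, rose by 1.05. Txnip, a redox protein reported to bind NLRP3, went from 85.8 ± 8.90 CPM in M0 to 42.0 ± 3.78 CPM in M1 (SD, n = 3). Its log2 fold change was -1.03 (edgeR adjusted p = 0.00431). The transcription factor gene Irf1 (-0.77) and Tmem176b (-0.54) also fell by edgeR. The median of the list was -0.25 in M1, -0.19 in CaP_rods and -0.14 in SiO2_rods, each against M0.

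The largest rod response in this list was Serpinb1a, whose product inhibits serine proteases of neutrophils and is known to restrain caspase-1. It stood at 0.289, 0.390 and 0.463 CPM in M0, 8.91, 8.86 and 9.43 CPM in CaP_rods and 0.831, 0.906 and 0.554 CPM in SiO2_rods. The CaP_rods libraries lay above those of every other group. Serpinb1a rose by 4.70 on the log2 scale in CaP_rods vs M0 (SE 0.28, edgeR adjusted p = 0.000302) and by 3.61 in CaP_rods vs SiO2_rods (SE 0.25, edgeR adjusted p = 0.000963). In CaP_rods vs M0 it was the 1 gene of 16 tested that edgeR called, and 9 had an unadjusted p under 0.05 (18% of all genes). DESeq2 called Serpinb1a higher there and also 2 genes lower, Txnip (-0.52, adjusted p = 0.0417) and Tmem176b (-0.53, 0.0306). In SiO2_rods vs M0, edgeR and DESeq2 called 0, and 4 had an unadjusted p under 0.05 (9.27% of all genes). In M1, where it was at no more than 3 counts in each library, its level under CaP_rods was at least 31.1-fold higher.

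**Figure D4:**
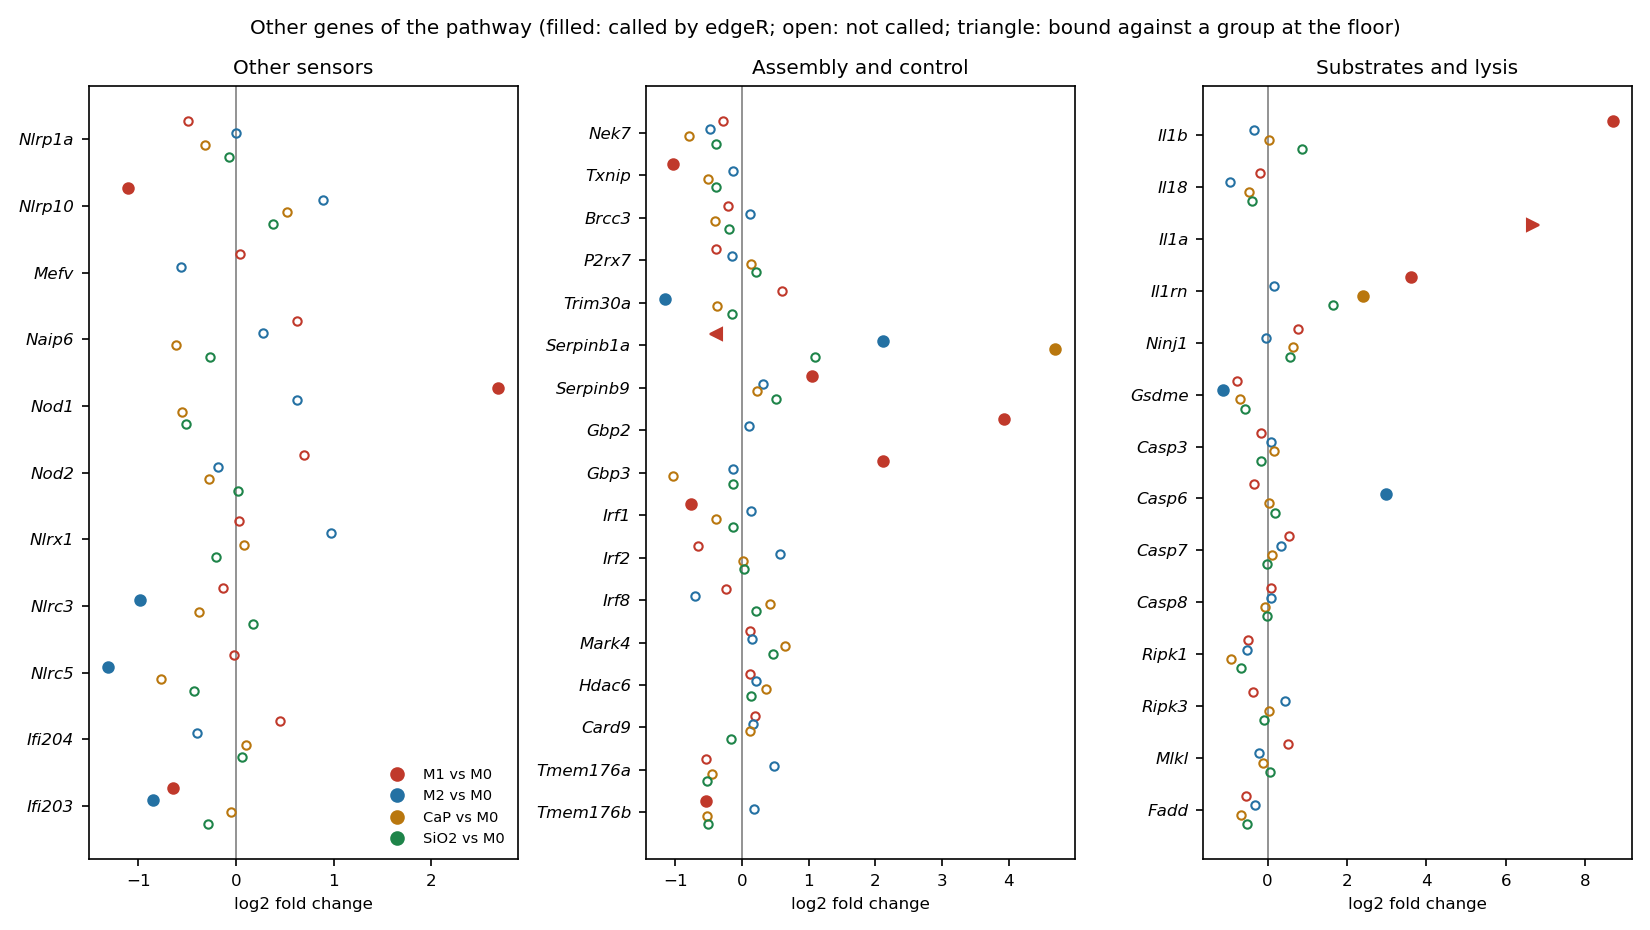
Fitted log2 fold changes vs M0 of the tested genes in the 3 other lists of the pathway, with filled circles for genes called by edgeR, open circles for genes not called, and triangles for bounds, with no call implied, where 1 of the groups was at no more than 3 counts in every library. The filled circles furthest to the right in M1 are Il1b (8.69), Gbp2 (3.92) and Il1rn (3.61), with Il1a as a triangle at a bound of 102-fold. Serpinb1a (4.70) and Il1rn (2.40) are the filled circles of CaP_rods.

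Of the other sensors (15 on the list, 11 tested), 1 rose and 2 fell in M1 vs M0. Nod1, a receptor for bacterial peptidoglycan, went from 0.612 ± 0.283 CPM in M0 to 4.07 ± 0.874 CPM in M1 (SD, n = 3), a log2 fold change of 2.69, while Nlrp10 (-1.11) and Ifi203, a relative of Aim2 (-0.64), fell. In M2 vs M0, 0 rose and 3 fell by edgeR, namely Nlrc3 (-0.98), Nlrc5 (-1.31), an activator of MHC class I genes, and Ifi203 (-0.85). DESeq2 called 1 higher and 3 lower there. For both rod comparisons with M0, edgeR and DESeq2 called 0 of the 10 tested, with 2 (CaP_rods) and 0 (SiO2_rods) at an unadjusted p under 0.05. The median of the list was 0.03 in M1, -0.18 in M2, -0.30 in CaP_rods and -0.14 in SiO2_rods, each against M0.

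In M2 vs M0 the other lists also gave calls in both directions. Casp6, encoding an apoptotic caspase, went from 77.8 CPM to 613 CPM (log2 fold change 2.98, SE 0.20) and Gsdme, encoding a second pore-forming gasdermin, from 160 CPM to 72.7 CPM (-1.14, SE 0.26), each a mean of 3 libraries. Serpinb1a rose by 2.11 on the log2 scale and Trim30a fell by 1.15 (adjusted p = 0.0383 by edgeR and 0.111 by DESeq2).

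In the comparisons of rods with M1, calls were found in all 3 lists. Il1b and Il1rn were lower in CaP_rods (-8.65 and -1.21) and in SiO2_rods (-7.82 and -1.98), and Il1a was at least 180-fold lower in CaP_rods and -7.82 on the log2 scale in SiO2_rods. Gbp2 (-3.73 and -3.16 for CaP_rods and SiO2_rods) and Gbp3 (-3.14 and -2.25) were lower in both. P2rx7, the ATP-gated channel upstream of NLRP3, was higher in both (0.52 and 0.60), as was Serpinb1a, at least 2.62-fold in SiO2_rods. P2rx7 held 64.9 to 77.0 CPM in M1, under its M0 libraries of 92.0 to 96.3 CPM. It held 93.9 to 110 CPM in CaP_rods, which overlapped M0, and 104 to 116 CPM in SiO2_rods. Of the other sensors, Nod1 was lower (-3.24 and -3.20) and Nlrp10 higher (1.63 and 1.49) in both. Called for CaP_rods vs M1 but not for SiO2_rods vs M1 were Mefv, which encodes pyrin (-1.86), and Naip6 (-1.24). Trim30a (-0.98) and the transcription factor gene Irf8 (0.67) were others of this kind. Mefv rested on 11, 4 and 6 counts in CaP_rods and 13, 4 and 10 in M1, and held 4 counts in each SiO2_rods library. Compared directly, CaP_rods vs SiO2_rods gave edgeR calls in 0 of the 10 other sensors tested. Of the 16 genes of assembly and control tested there, 1 was called, Serpinb1a. The calls against M1 and those of M1 against M0 share the M1 libraries.

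Over the 15 libraries the pattern of each main member was compared with the 10722 genes ranked, as a description in which libraries share groups, depth and scaling. For Nlrp3 the nearest genes were Pvr (Pearson r = 0.89), Fbxo34 (0.88) and Cap1 (0.88). For Casp1 they were Pop5 (0.92), Parl (0.92) and Mrpl58 (0.91), and for Casp4 Trmt10a (0.95), Tbrg1 (0.92) and Dusp2 (0.92). For Gsdmd they were Ap2m1 (0.97), Tuba4a (0.96) and Lpcat3 (0.95). Within the set the closest pair was Casp1 and Casp4 (r = 0.74), and the most opposed was Nlrc4 and Gsdmd (r = -0.63).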

How the data were processed

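The authors made Smart-seq2 libraries (75-base paired-end reads, no molecular identifiers, unstranded), ran the nf-core/rnaseq pipeline with STAR and Salmon on an Ensembl annotation (GRCm39 per the labels), and deposited whole-number counts per gene without normalization. Salmon estimates counts, so these may be rounded estimates. Floors from counts cover counting error only. The intervals given with fold changes came from the edgeR fits and also cover the spread between libraries. Symbols came from GENCODE and RefSeq tables on GRCm38, matched by Ensembl identifier for 51487 of 78317 rows. The number of columns left unused was 0.

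Counts were scaled by TMM and tested with edgeR 4.0.16 (quasi-likelihood, filterByExpr, Benjamini-Hochberg over all genes tested) in R 4.3.3. Comparisons among M0, M1 and M2 and of rods with M1 used 15 libraries and 16654 genes, and comparisons of rods with M0 and with each other used 9 libraries and 16621 genes. DESeq2 1.42.0, scaling, filter, thinning, replicate block and single left-out libraries were alternatives, and the fits were tested on simulated data. An edgeR legacy fit and a coding-transcript length were added after the data were seen. The smallest two-sided p of an exact permutation of 3 and 3 libraries is 0.10, so none was used.

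Members and gene lists were chosen with earlier results of these data known. All 10 members are named, as are list genes called in any rod comparison and up to 4 called genes per list with the largest change in M1 vs M0 at a mean of 5 CPM or more. Further list genes were named after their values were seen. Same-numbered libraries deviated together in M1 vs M0 (correlations 0.206 to 0.292, all above 0.1), as a reading of the data and not of the labels, and in no other comparison did all 3 pairs pass 0.1.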

Additional observations from a re-analysis of the deposited data

How the results depend on the processing

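Of 722 alternative values for the 51 member log2 fold changes given singly, 675 kept their direction and their side of the threshold, 27 changed sign, 17 passed the threshold and 3 lost it. The number of members called changed as follows, from 0 unless stated. In M1 vs M0 it was 1 without a filter (Nlrc4) and 1 with the replicate block (Nlrp1b, log2 fold change -1.56, adjusted p = 0.0470), and the block changed the call of no other named member. In M2 vs M0 it was 1 with at least 10 counts in every library (Aim2) and 2 with DESeq2, and 0 to 3 with 1 library left out. In M1 vs M2 it went from 1 to 0 with only the 6 libraries compared, and was 0 to 1 with 1 library left out. In CaP_rods vs M1 it was 1 with thinned counts (Naip2), 1 with DESeq2 (Casp4), 1 with only the 6 libraries compared (Naip2), and 0 to 1 with 1 library left out. In SiO2_rods vs M1 it was 0 to 1 with 1 library left out. In CaP_rods vs M0 it was 1 without a filter, 1 with DESeq2 (Nlrc4 in both) and 0 to 1 with 1 library left out. It stayed at 0 in SiO2_rods vs M0 and CaP_rods vs SiO2_rods under every alternative run. The cause of these changes was not tested.

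Changes of sign were limited to members with a small log2 fold change and to adjusted p-values far from the threshold. With thinned counts, Nlrp3 was 0.29 and Naip2 was 0.37 in M2 vs M0, Naip5 was 0.18 and Casp4 was 0.017 in CaP_rods vs M0, and Naip2 was 0.14, Naip5 was 0.23 and Pycard was -0.0035 in SiO2_rods vs M0. With the legacy fit, Naip2 was 0.030 in M2 vs M0 and 0.026 in SiO2_rods vs M0, and Naip5 was 0.0087 in CaP_rods vs M0. With DESeq2, Naip2 was 0.014 in M2 vs M0 and 0.012 in SiO2_rods vs M0. With 1 library left out, Naip5 ran from -0.45 to 0.41 in M1 vs M0, and in M2 vs M0 Nlrp3 ran from -0.37 to 0.068, Naip2 from -0.44 to 0.22, Naip5 from -0.18 to 0.39 and Casp1 from -0.46 to 0.015. Naip5 ran from -0.26 to 0.078 in CaP_rods vs M0, and in SiO2_rods vs M0 Naip2 ran from -0.24 to 0.27, Naip5 from -0.23 to 0.12 and Pycard from -0.048 to 0.14.

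Over the alternatives, calls over all genes ran from 1511 to 3394 in M1 vs M0, 98 to 1361 in M2 vs M0, 1377 to 4407 in M1 vs M2, 1350 to 3882 in CaP_rods vs M1, 1114 to 2435 in SiO2_rods vs M1, 7 to 743 in CaP_rods vs M0, 0 to 129 in SiO2_rods vs M0 and 1 to 16 in CaP_rods vs SiO2_rods. The order of the members by level per kilobase in M0 was the same for all 10 under the other lengths and scaling. Aim2 and Casp4 overlapped at the coding-transcript length, and Gsdmd and Nlrc4 at the summed exon length. Depth limits Nlrp1b and Naip5 most, with as few as 1 and 8 counts in a library.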
